A study of Mus musculus with 4 samples.

Results

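The enzymes and carriers that make, bind and destroy retinoic acid were examined in embryonic mouse hearts. The set held 9 genes, chosen by name: Rdh10, Aldh1a1, Aldh1a2, Aldh1a3, Dhrs3, Crabp1, Crabp2, Cyp26a1 and Cyp26b1. They are 9 of the 30199 names that the array's 39429 non-control probes carry in their gene name field, and each had 1 probe of 60 bases. A probe was kept where the scanner software called it well above background on every array in the channel of at least 1 genotype, and all 9 were among the 25484 probes kept.

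Hearts were microdissected at embryonic day 9.5 from Nkx2.5Cre; Hdac3f/f mutants and from Hdac3f/f littermate controls, all on a mixed CD1/B6/129 background. Hdac3 is a histone deacetylase, f marks an allele flanked by recombination sites, and Nkx2.5Cre places the recombinase under control of the Nkx2-5 gene, which is active in cardiac progenitors and heart muscle. Both groups carried the floxed alleles, and no Cre was stated for the controls, so loss of Hdac3 and the presence of Cre cannot be told apart. RNA of 3 hearts was pooled per sample, and 4 mutant pools were hybridised against 4 control pools on 4 two-colour arrays of 1 slide. The labels call the pools biological replicates. The dissected tissue was whole heart, so a value is an average over all of its cell types.

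Retinoic acid is made from retinol (vitamin A) in 2 oxidation steps. Retinol dehydrogenases such as Rdh10 give retinal, and the retinaldehyde dehydrogenases of the Aldh1a family turn retinal into retinoic acid. Dhrs3 runs the first step backwards, the Crabp proteins bind retinoic acid in the cytoplasm, and the Cyp26 enzymes oxidise it to products that are cleared. In the embryo, retinoic acid acts on the posterior heart field and inflow tract and later on the epicardium, the outer cell layer of the heart. It binds nuclear receptors that sit on paired short DNA motifs and that recruit corepressor complexes containing Hdac3 when no ligand is present.

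The direction of the ratios is likely but not settled. The labels place mutant RNA in Cy5 on every array, whereas the deposited columns, named mutant against wild type, ran with Cy5 over Cy3 on arrays 1 and 2 (slopes of 1.036 and 1.017) and against it on arrays 3 and 4 (slopes of -0.9903 and -1.03). Values below keep the sign of the deposited columns, on the basis of their names. The mean of each named gene with all arrays read as labelled stands beside it. As-labelled means and medians come from the scanner signals after background correction and loess. They therefore differ from the deposited ones in processing as well as in sign. Across probes, the deposited columns of arrays 1 and 2 correlated at r = 0.538 and those of arrays 3 and 4 at 0.421. For the scanner ratios with the dyes read as labelled, these were 0.434 and 0.39. Both arrays of a pair turn sign together, so the values within a pair differ only by processing and cannot bear on the direction. Between the array pairs, arrays 1 and 4 correlated at -0.303 and arrays 2 and 4 at -0.121 in the deposited sign, against 0.253 and 0.109 as labelled. Arrays 1 and 3 correlated at 0.0856 and arrays 2 and 3 at 0.0323 in the deposited sign, against -0.0648 and -0.00857 as labelled. Hdac3 itself had log2 ratios of -0.22, -0.498, -0.522 and -1.15 on arrays 1 to 4 (limma adjusted p = 0.579) and a mean of 0.213 as labelled. No source used here says whether its probe lies in the deleted part.

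For replicates 2 to 4 the description field speaks of stem cells, in conflict with the title, source and genotype of the same samples, which give hearts. All 9 myocardial markers examined, Myh6 and Tnnt2 among them, were well above background in all 8 channels. Of 6 markers of pluripotent cells, Pou5f1 and Dppa3 were not well above background in any channel and Nanog, Zfp42, Utf1 and Tdgf1 were in all. For each of the 9 genes the value on array 1, whose description names hearts, is given separately below. Per channel, 66.6% to 71.2% of probes exceeded background in this sense.

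None of the 9 genes passed the threshold of 0.05 on the adjusted p (limma with Benjamini-Hochberg adjustment over all 25484 probes), and neither did any other probe (0%), with a smallest adjusted p of 0.326. In the sign of the deposited columns, the 4 oxidising enzymes had mean log2 ratios below 0, with a median of -0.23, and the 5 genes of retinal reduction, retinoic acid binding and clearance had means above 0, with a median of 0.25. The median of all probes tested was 0.006, and 51.9% of them had a mean above 0. This split was not complete with all arrays read as labelled, when 3 of the 4 oxidising enzymes lay below 0 and 3 of the 5 other genes above it, nor without array 2, when the counts were the same. After median centring of the scanner signals, 2 of the 4 and 5 of the 5 kept their side. After loess of those signals, and also with the pools unpaired, 3 of the 4 and 5 of the 5 did. A fit with array weights and a fit on arrays 1 and 2 only each kept 4 of the 4 and 4 of the 5. On arrays 3 and 4 only, 3 of the 4 and 5 of the 5 kept their side. An unadjusted p under 0.05 was reached by Cyp26b1 and Dhrs3 among the higher genes, a level that 3.65% of all probes tested reached in that direction, and by Aldh1a1 among the lower ones, against 4.88% of all probes. With 4 arrays, an exact sign-flip permutation test of a single gene cannot give a two-sided p below 0.125.

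**Figure D1:**
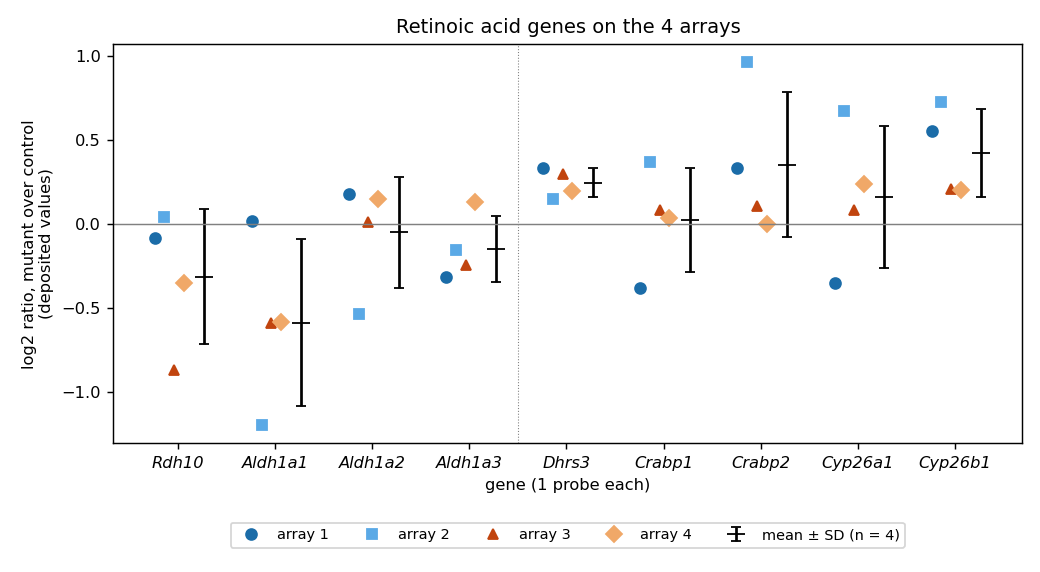
Deposited log2 ratio of mutant over control (y axis) for each of the 9 genes (x axis), with 1 symbol per array and a bar for the mean with its SD (n = 4). The 4 oxidising enzymes stand left of the dotted line with means from -0.59 to -0.05, and the other 5 genes stand right of it with means from 0.03 to 0.42, a split that as labelled holds for 3 of the 4 and 3 of the 5. Symbols of Cyp26b1 and Dhrs3 lie above 0 on all 4 arrays.

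Aldh1a1, a retinaldehyde dehydrogenase, had the lowest mean of the set. Its probe lies on the plus strand of chromosome 19 (mm9, chr19:20717764-20717823). The log2 ratio was 0.017 on array 1, -1.20 on array 2, -0.59 on array 3 and -0.58 on array 4. Arrays 2, 3 and 4 read below 0, and array 1 read at 0. The mean was -0.59 ± 0.498 (SD, n = 4), a mutant level of 0.664 times the control level, with a 95% interval of -1.03 to -0.147. Its limma p was 0.0169 and its adjusted p 0.579. Without array 2 it was -0.386. As labelled the mean was -0.02, because arrays 1 and 2 then read 0.00915 and -1.19 and arrays 3 and 4 read 0.51 and 0.586. In bulk RNA of this kind, fewer cells of a type and less RNA per cell cannot be told apart.

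The normalized log2 intensity of Aldh1a1 spanned 9.472 to 11.57 over the mutant pools (median 9.954) and 9.982 to 11.61 over the control pools (median 10.82). The groups overlapped. The larger separation was between arrays: the 4 pools of arrays 1 and 2 averaged 11.29 ± 0.58 (SD) and the 4 pools of arrays 3 and 4 averaged 9.754 ± 0.319, with no overlap and a difference of 1.54. Of all probes tested, 5.38% had all 4 pools of arrays 1 and 2 above those of arrays 3 and 4, and 5.71% had them below. The labels give no property by which these array pairs differ. In the deposited signs, however, mutant RNA was in Cy5 on arrays 1 and 2 and in Cy3 on arrays 3 and 4. For every gene of the set, array pair and dye assignment therefore cannot be told apart.

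Aldh1a2, the main enzyme that makes retinoic acid in the early embryo, did not show a ratio of one sign. Its probe lies at chr9:71143931-71143990 (mm9, plus strand). The ratio was 0.176 on array 1, -0.537 on array 2, 0.011 on array 3 and 0.148 on array 4. Array 2 alone read below 0. The mean was -0.05 ± 0.332 (SD, n = 4; limma adjusted p = 0.912), 0.112 without array 2 and -0.106 as labelled. Levels followed the arrays as those of Aldh1a1 did: the pools of arrays 1 and 2 averaged 9.637 ± 0.281 and those of arrays 3 and 4 averaged 8.561 ± 0.0794, a difference of 1.08 with no overlap. Mutant pools spanned 8.558 to 9.909 and control pools 8.461 to 9.707.

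Markers of proepicardium and epicardium, the layers in which Aldh1a1 and Aldh1a2 are known to be expressed, were read beside both genes. All 10 markers passed the filter and had means below 0 (median -0.18; 0 of 10 called), against 8 of 10 and a median of -0.11 as labelled. Their median ratio on arrays 1 to 4 was -0.07, -0.58, -0.28 and -0.02. Array 2 was lowest for the markers and for both enzymes. Upk1b, a mesothelial uroplakin, had a mean of -0.52 ± 0.35 and Tcf21, a transcription factor of epicardial cells, a mean of -0.42 ± 0.286, both with a limma adjusted p of 0.579, while Wt1 and Tbx18 stood at -0.17 ± 0.241 and -0.12 ± 0.208. As labelled these means were -0.107 for Upk1b, -0.0225 for Tcf21, 0.00702 for Wt1 and 0.0322 for Tbx18, so Wt1 and Tbx18 turned sign. The mean level of the 10 markers was 9.542, 9.117, 8.788 and 8.972 in the mutant pools and 9.653, 9.683, 8.97 and 8.995 in the control pools, and none was at background. The markers' part in the Aldh1a1 and Aldh1a2 values was not tested. Without array 2 their median was -0.09. Of the erythroid markers, 7 of 7 had means below 0, with a median of -0.28, or -0.04 as labelled, and 0 of 7 were called. Their median was 0 on array 1, where 4 of 7 lay below 0, and -0.51, -0.25 and -0.30 on arrays 2 to 4.

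**Figure D2:**
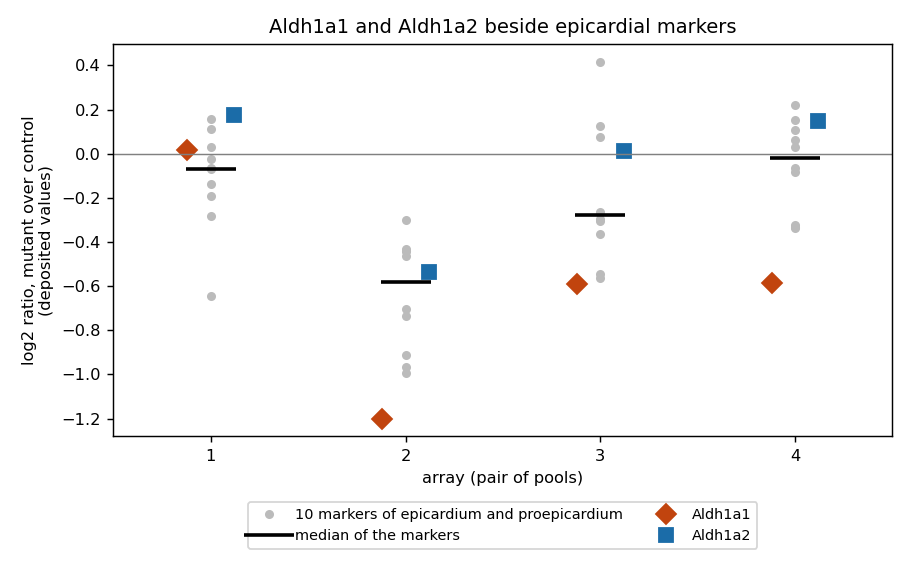
Deposited log2 ratio of mutant over control (y axis) on each array (x axis) for the 10 markers of epicardium and proepicardium (grey points), their median (black bar), Aldh1a1 (diamonds) and Aldh1a2 (squares). On array 2 the median of the markers is -0.58, Aldh1a1 is at -1.20 and Aldh1a2 at -0.537, and on array 1 the same values are -0.07, 0.017 and 0.176.

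Aldh1a3, the third retinaldehyde dehydrogenase, had a mean below 0 in the deposited table. Its probe lies on the minus strand at chr7:73535785-73535844 (mm9) and holds the hexamer AATAAA, the letters of the canonical polyadenylation signal. Its last 30 bases are shown with the hexamer in capitals, and the place of the probe in the transcript was not analysed here.
Aldh1a3: gttcagcaatgaaaaAATAAAgttggacac
The ratio was -0.317, -0.158, -0.246 and 0.129 on arrays 1 to 4, with array 4 alone above 0. The mean was -0.15 ± 0.196 (SD, n = 4; limma adjusted p = 0.646) and -0.07 as labelled. From background-corrected scanner signals it was 0.0195 after loess and 0.0451 after median centring. Loess without background correction gave -0.135, so under loess its sign turned with the background correction. With the scanner software's processed signals it was -0.367, without array 1 it was -0.0917 and without array 4 it was -0.24. Levels spanned 6.945 to 7.224 in mutant pools and 6.958 to 7.223 in control pools, nearly the same range, and did not separate the arrays.

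Rdh10, the retinol dehydrogenase needed for retinal in the embryo, read below 0 on 3 of the 4 arrays. Its probe lies at chr1:16122062-16122121 (mm9, plus strand). The ratio was -0.085, 0.043, -0.868 and -0.35 on arrays 1 to 4. Array 3 was the lowest and array 2 stood just above 0. The mean was -0.32 ± 0.403 (SD, n = 4; limma adjusted p = 0.597), -0.131 without array 3 and 0.118 as labelled. Mutant pools spanned 7.345 to 7.741 and control pools 7.574 to 7.903, with overlap. With the scanner software's processed signals the mean was -0.472, and after loess of the scanner signals -0.172.

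Dhrs3, the reductase that returns retinal to retinol and whose transcript is known to be induced by retinoic acid, had the least spread of the 9. Its probe lies at chr4:144517485-144517544 (mm9, plus strand) and also holds AATAAA, in capitals in its last 30 bases.
Dhrs3: agaaacgcaaAATAAAgaggtggctttcgc
The ratio was 0.336, 0.151, 0.298 and 0.196 on arrays 1 to 4. Every array read above 0, as did those of 9.63% of all probes tested. The mean was 0.25 ± 0.0863 (SD, n = 4), a level 1.19 times that of controls, with a 95% interval of 0.065 to 0.425. By limma the p was 0.0153 and the adjusted p 0.579. As labelled it was 0.0168, with 2 arrays on each side of 0. Mutant pools spanned 9.986 to 10.73 and control pools 9.831 to 10.38, and within each array the mutant pool was the higher one.

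Crabp2, a carrier that delivers retinoic acid to its nuclear receptors, had a mean of 0.35 ± 0.432 (SD, n = 4; limma adjusted p = 0.594). Its probe lies at chr3:87757207-87757266 (mm9, plus strand). The ratio was 0.335 on array 1, 0.965 on array 2, 0.107 on array 3 and 0.000 on array 4. Arrays 1 and 2 carried the difference, with a mean of 0.65, against 0.0535 on arrays 3 and 4. Without array 2 the mean was 0.147, and as labelled it was 0.298. Levels were higher on arrays 3 and 4 (12.9 ± 0.0462 over 4 pools) than on arrays 1 and 2 (12.08 ± 0.44), a difference of -0.823 with no overlap. The control pools stood at 11.78 and 11.72 on arrays 1 and 2 against 12.85 and 12.9 on arrays 3 and 4, and the mutant pools at 12.12 and 12.68 against 12.97 and 12.89.

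Crabp1, the second cytoplasmic carrier, showed no ratio of one sign. Its probe lies at chr9:54616192-54616251 (mm9, plus strand). The ratio was -0.381, 0.368, 0.081 and 0.033 on arrays 1 to 4. The mean was 0.03 ± 0.309 (SD, n = 4; limma adjusted p = 0.959) and -0.02 as labelled. Its levels averaged 8.83 ± 0.231 over the pools of arrays 1 and 2 and 9.4 ± 0.0773 over those of arrays 3 and 4, a difference of -0.57 with no overlap, while the mutant pools (8.568 to 9.482) and control pools (8.805 to 9.425) overlapped. Neural crest, a known site of Crabp1 expression, was represented by 6 markers with a median of 0.02, of which 3 passed the filter.

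Cyp26a1, the main retinoic acid hydroxylase of the early embryo and itself a known target of the retinoic acid receptors, was not above background in every pool. It was well above it in all 4 control channels and in 3 of the 4 mutant channels, array 1 being the exception. Its probe lies at chr19:37775566-37775625 (mm9, plus strand). The ratio was -0.353, 0.674, 0.084 and 0.236 on arrays 1 to 4, with a mean of 0.16 ± 0.424 (SD, n = 4; limma adjusted p = 0.751). Array 2 stood highest, and without it the mean was -0.011. As labelled it was -0.0566. Levels averaged 7 ± 0.189 over the pools of arrays 1 and 2 and 7.548 ± 0.17 over those of arrays 3 and 4, a difference of -0.548 with no overlap.

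Levels of Cyp26a1 and Crabp1 were both lower on arrays 1 and 2. Their probes are printed in full because the longest run of bases they share is short, at 6.
Cyp26a1: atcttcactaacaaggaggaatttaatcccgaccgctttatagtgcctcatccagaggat
Crabp1: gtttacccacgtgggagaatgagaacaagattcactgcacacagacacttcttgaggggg
No pair of the 9 probes shared a run of more than 9 bases.

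Cyp26b1, the second retinoic acid hydroxylase, was the only gene of the set in which the levels of all 4 mutant pools lay above those of all 4 control pools. Its probe lies on the minus strand at chr6:84521952-84522011 (mm9). The ratio was 0.553 on array 1, 0.729 on array 2, 0.206 on array 3 and 0.202 on array 4. All arrays read above 0, and arrays 1 and 2 read higher than arrays 3 and 4. The mean was 0.42 ± 0.262 (SD, n = 4), a mutant level of 1.34 times the control level, with a 95% interval of 0.15 to 0.695. The limma p was 0.00863 and the adjusted p 0.579. As labelled it was 0.216. Mutant pools held levels of 11.52, 11.66, 11.5 and 11.4 on arrays 1 to 4 and control pools 10.97, 10.95, 11.3 and 11.2. With the dyes read as labelled, the values of arrays 3 and 4 change places and the groups overlap. Such a separation was seen in 1.29% of all probes tested with mutant pools higher and in 1.22% with mutant pools lower. No gene of the set read below 0 on all 4 arrays, against 10.2% of probes.

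**Figure D3:**
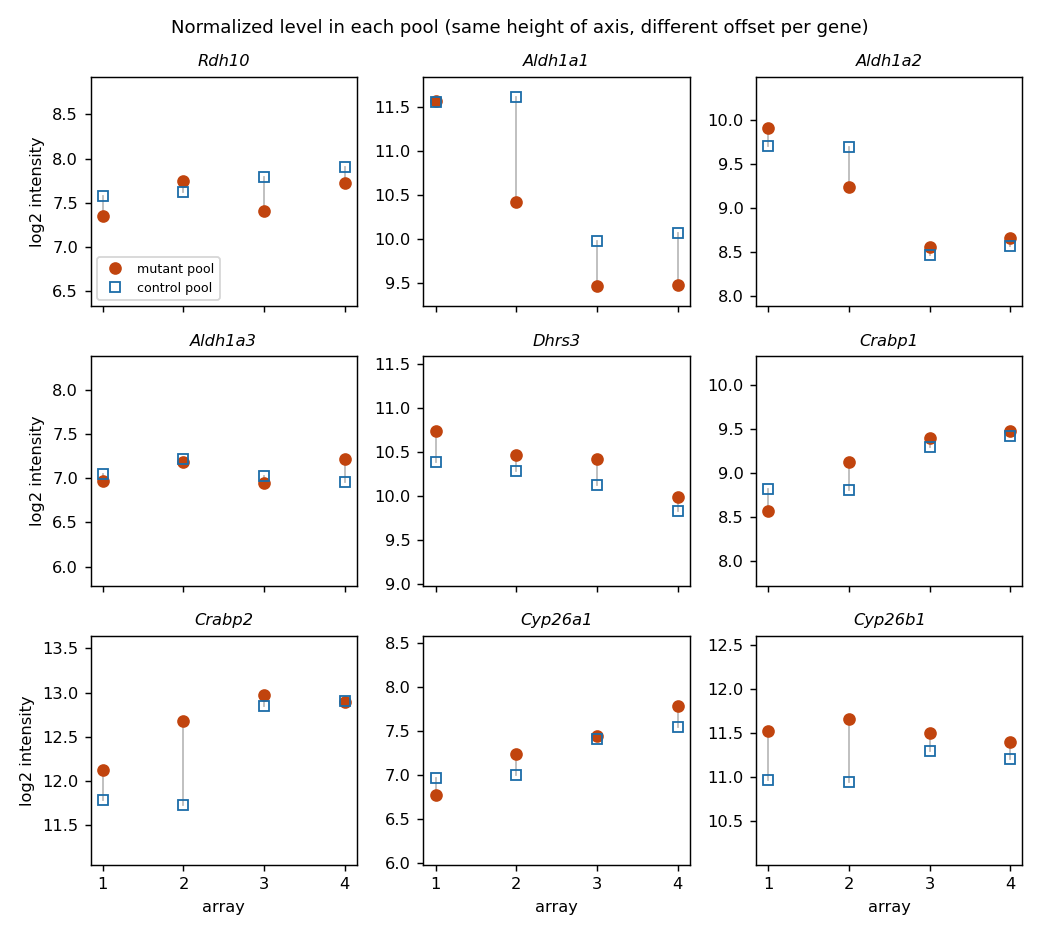
Normalized log2 intensity (y axis, the same height with its own offset per gene) in the mutant pool (filled circles) and control pool (open squares) of each array (x axis), 1 panel per gene. Aldh1a1 and Aldh1a2 are higher on arrays 1 and 2, Crabp1, Crabp2 and Cyp26a1 are higher on arrays 3 and 4, and only for Cyp26b1 do all mutant pools (11.4 to 11.66) lie above all control pools (10.95 to 11.3), with channels assigned by the sign of the deposited columns.

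Differences between array pairs thus took in 5 of the 9 genes. Of all probes tested, 5.38% were so separated with arrays 1 and 2 higher and 5.71% with them lower. The pairs were chosen after seeing the data, and the pools of an array share its hybridisation, so they are not independent replicates. Aldh1a1 and Aldh1a2 were higher on arrays 1 and 2, Cyp26a1, Crabp1 and Crabp2 were higher on arrays 3 and 4, and Aldh1a3, Rdh10, Cyp26b1 and Dhrs3 overlapped. Levels compared across arrays rest on the normalization between arrays, which the ratio within an array does not need. Mean marker levels of epicardium were also higher on arrays 1 and 2 in the control pools, at 9.653 and 9.683 against 8.97 and 8.995. Erythroid markers did likewise, at 13.68 and 13.81 against 13.22 and 13.37 in the control pools and at 13.72 and 13.22 against 12.96 and 12.99 in the mutant pools. What part these have in the levels of the Aldh1a genes was not tested.

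**Figure D4:**
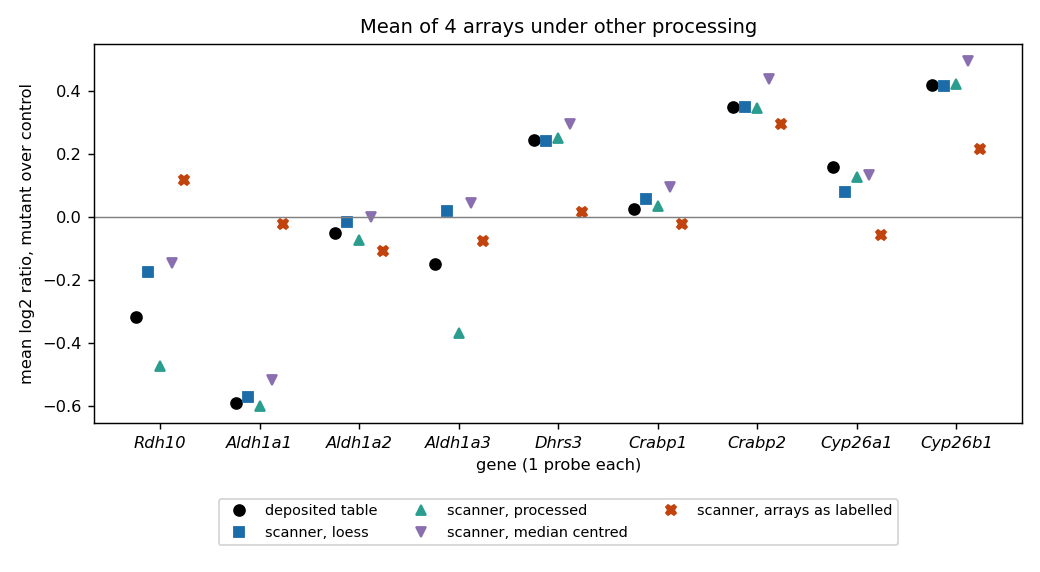
Mean log2 ratio of mutant over control over the 4 arrays (y axis) for each gene (x axis) in the deposited table. Beside it stand 3 other normalizations of the scanner signals, turned to the same sign. Crosses give loess of the scanner signals with all arrays read as labelled. The means of Aldh1a1, Dhrs3, Crabp2 and Cyp26b1 keep their sign in all of these, and as labelled Aldh1a1 and Dhrs3 are at -0.0215 and 0.0168.

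The wider pathway was read from a list of other retinoid genes, and 0 of them passed the threshold in either direction. Of 8 genes of retinol transport and storage, 7 were on the array and 5 passed the filter. All 7 had a mean above 0, with a median of 0.13, or -0.02 as labelled. Rbp4, the plasma carrier of retinol, had ratios of 0.514, 0.162, 0.118 and 0.487, a mean of 0.32 ± 0.209 (limma adjusted p = 0.579) and a mean of -0.0158 as labelled. Stra6, the cell surface receptor for that carrier, had a mean of 0.25 ± 0.234 with the same adjusted p, and 0.0724 as labelled. Markers of liver bud and foregut endoderm, where Rbp4 is known to be expressed, had means above 0 in 9 of 11 cases (5 passed the filter; median 0.13, or 0.04 as labelled), while Foxa1 and Apoa1 were not well above background in any channel. Their mean level was 7.084 to 7.33 in mutant pools and 7.005 to 7.09 in control pools, and their part in the Rbp4 value was not tested. Of 18 other retinol and retinal enzymes on the array, 11 passed the filter and their median was 0.00. Rdh14 and Adh1, both able to oxidise retinol, had means of -0.18 ± 0.137 and 0.16 ± 0.0467, both with a limma adjusted p of 0.59, and -0.0363 and 0.11 as labelled. Cyp26c1, the remaining member of the clearance family, was not well above background in any channel, and Fabp5, a carrier that can also take up retinoic acid, had a mean of -0.05 ± 0.145, or -0.00722 as labelled.

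All 6 retinoic acid and retinoid X receptors passed the filter and had means above 0, with a median of 0.14, or 0.00 as labelled. Rara, Rarb and Rarg, which bind retinoic acid, had means of 0.20 ± 0.116, 0.18 ± 0.116 and 0.18 ± 0.0757, each with a limma adjusted p of 0.579. Each read above 0 on all 4 arrays in the sign of the deposited columns, as 9.63% of all probes tested did, but as labelled the means were -0.00854, -0.079 and 0.00492. The other 2 probes of Rarb stood at -0.24 and 0.10, and the second probe of Rara at 0.26. Their partners Rxra, Rxrb and Rxrg had means of 0.02 ± 0.0753, 0.11 ± 0.23 and 0.05 ± 0.128, or 0.0153, -0.196 and 0.0323 as labelled. A second probe of Rxra stood at -0.06, opposite in sign to the one used, and a second probe of Rxrg at 0.16. Of 13 genes known to respond to retinoic acid, 9 passed the filter and 11 had means above 0, with a median of 0.12, or 0.04 as labelled. With the scanner software's processed signals that median was 0.37, with 12 of 13 above 0. Nr2f1 and Nr2f2, nuclear receptors of the venous pole and atria, had means of 0.33 ± 0.226 and 0.41 ± 0.335, both with an adjusted p of 0.579 (limma), and 0.171 and 0.258 as labelled. They also belong to the 7 markers of sinus venosus and atrium, all 7 of which had means above 0 with a median of 0.28, or 0.04 as labelled. The mean level of those markers was 9.859 to 9.922 in mutant pools and 9.56 to 9.649 in control pools. Their part in the values of the pathway genes was not tested.

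**Figure D5:**
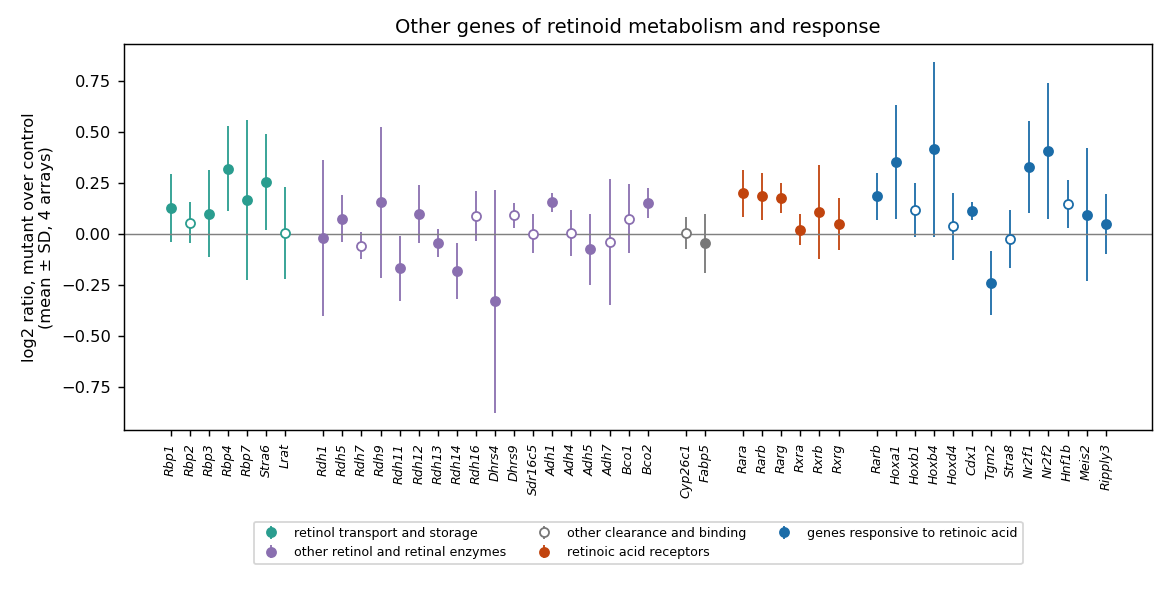
Mean log2 ratio of mutant over control with its SD over 4 arrays (y axis) for the other genes of retinoid metabolism and response (x axis), coloured by group. Filled points passed the filter on dim probes and open points did not. All 6 receptors have means from 0.02 to 0.20 in the sign of the deposited columns, with a median of 0.00 as labelled, and 0 of the genes shown passed the adjusted threshold.

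Promoter sequences were examined for the paired hexamers that the receptors bind. RefSeq windows of assembly GRCm38.p6, from 250 bases before to 50 bases after a start site, matched 6 of the 9 genes (9 windows) and 6 of 6 receptors (13 windows). The hexamer AGGTCA was searched together with its variants (AGTTCA for one, then GGGTCA and also GGTTCA), in any combination, on both strands, as direct repeats with 1, 2 or 5 bases between them. Repeats with a spacer of 5 were found in 1 of the 6 matched genes, Cyp26a1, and in 1 of the 6 receptors, Rarb, and in 0.0975% of all 32817 windows. Those with a spacer of 1 or 2 were found in none of the windows of either set, against 0.222% and 0.268% of all windows. The Cyp26a1 repeat lies 32 to 16 bases before the start site on the reverse strand, and the Rarb repeat 53 to 37 bases before it. The 250 bases upstream of each start site are printed with the repeat in capitals, at chr19:37697558-37697807 (plus strand) and chr14:16575477-16575726 (minus strand).
Cyp26a1: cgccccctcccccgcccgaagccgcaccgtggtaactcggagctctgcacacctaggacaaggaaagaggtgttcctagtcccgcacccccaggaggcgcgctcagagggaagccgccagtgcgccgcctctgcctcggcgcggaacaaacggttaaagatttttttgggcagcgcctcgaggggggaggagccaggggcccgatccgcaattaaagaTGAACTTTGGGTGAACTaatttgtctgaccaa
Rarb: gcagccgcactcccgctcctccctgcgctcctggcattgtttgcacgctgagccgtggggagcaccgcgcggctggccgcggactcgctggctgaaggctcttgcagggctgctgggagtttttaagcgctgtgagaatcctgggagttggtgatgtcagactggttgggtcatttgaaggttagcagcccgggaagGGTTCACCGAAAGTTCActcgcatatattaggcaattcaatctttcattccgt
A match is a description of the letters and not a measured binding site, and a window without one says nothing about the receptors. Cyp26a1 and Rarb, the genes with a match, had means of 0.16 ± 0.424 and 0.18 ± 0.116, or -0.0566 and -0.079 as labelled. The other probes of Rarb stood at -0.24 and 0.10. Any link between a match and a ratio was not tested.

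Genes whose levels ran most like those of 5 of the set over the 8 pools were sought by Pearson's r, as a description without a test, since the pools of an array share its hybridisation and the array pairs stand apart. Aldh1a2 was followed most closely by Rab32 (r = 0.997), LOC548102 (0.994) and Rtn1 (0.988). Crabp1 was followed by Aplnr (0.992), Wdr66 (0.982) and Synpo2 (0.98). Dpy19l1 (0.988), Nlrp9c (0.984) and Arid3b (0.979) ran most like Crabp2. For Rdh10 the nearest were Dock4 (0.99), Robo1 (0.981) and a probe without a gene name (0.979). For Dhrs3 they were Abcc8 (0.992), 2610020P09Rik (0.986) and C030037D09Rik (0.985).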

How the data were processed

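RNA pools of mutant and control hearts were compared on 4 two-colour Agilent arrays of 1 slide and 1 scan. The scanner files that the authors deposited hold mean, background and processed intensity for Cy3 and Cy5 and mm9 probe positions, per the file headers. Agilent Feature Extraction 8.5.1.1 is the software in the submitters' processing notes, and the file headers give another version. The authors deposited a table of log2 ratios whose normalization and centring are not given in the sources used here, with column medians of -0.029, -0.017, 0.017 and 0.023. These log2 ratios, matched by probe name, are the values reported.

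In R 4.3.3 with limma 3.58.1, ratios of the 25484 probes kept were tested against 0 (lmFit, eBayes), and Benjamini-Hochberg adjusted p-values under 0.05 were called. Levels came from the scanner intensities after normexp (offset 50), loess with control spots at weight 0, and quantile normalization of average intensity. The mutant channel was Cy5 on arrays 1 and 2 and Cy3 on arrays 3 and 4, following the deposited signs. Spots with outlier flags (230 to 327 per array) were left out, and no spot was saturated. Names of 27508 probes came by accession from a RefSeq table of GRCm38.p6, and the rest from the scanner files. Where a gene had several probes, the brightest stood for it.

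All 9 genes of the set are named, as are the receptors and up to 2 further genes of smallest unadjusted p per pathway list. The members and lists were chosen with earlier results of these data known. The replicate number pairs the pools within an array, and the ratio holds that pairing; a fit without it, other normalizations, filters, array weights, a dye term and the arrays as labelled were alternatives. Ratios of 25484 probes were also simulated for the mutant against control comparison, with 200 changed. The test called 42% of those changed by 0.5 on the log2 scale, 99% at 1 and 100% at 1.5, with 16 false calls. The simulated spread is not given here, so these shares cannot be carried over to the real arrays. Over the probes of a real array, ratios had SDs of 0.209, 0.228, 0.435 and 0.255 on arrays 1 to 4. The SD of a probe over the 4 arrays had a median of 0.188. The number of arrays limits the precision. Each limma p sets a mean ratio against its spread over these arrays, moderated over all probes. The fit treats the arrays as independent. Over probes, however, ratios correlated at 0.538 for arrays 1 and 2 and at 0.421 for arrays 3 and 4. Between these pairs, r ran from -0.303 to 0.0856.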

Additional observations from a re-analysis of the deposited data

How the results depend on the processing

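No gene of the set passed the adjusted threshold under any of the 16 other settings, which included a fit on arrays 1 and 2 only and one on arrays 3 and 4 only, both chosen after seeing the data. Aldh1a1, Dhrs3, Crabp2 and Cyp26b1 kept the sign of their mean in all 16, with ranges of -0.79 to -0.02, 0.02 to 0.30, 0.05 to 0.65 and 0.20 to 0.64. The lowest adjusted p (limma) was 0.0755, for Cyp26b1 with array weights, and its highest was 0.97.

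Signs turned as follows. With all arrays as labelled the means were 0.118 for Rdh10, -0.0566 for Cyp26a1 and -0.0201 for Crabp1. The same loess of the scanner signals in the deposited sign gave -0.172, 0.082 and 0.0584. Aldh1a3 stood at 0.0195 after loess of the scanner signals, at 0.0195 with no replicate block (the pools unpaired) and at 0.0451 after median centring. Aldh1a2 stood at 0.00225 after median centring and 0.0795 on arrays 3 and 4 only. Crabp1 stood at -0.0733 with array weights and -0.0065 on arrays 1 and 2 only. With 1 replicate left out in turn, Aldh1a2 ranged from -0.126 to 0.112, Cyp26a1 from -0.011 to 0.331 and Crabp1 from -0.089 to 0.161, and each turned without replicate 2. Causes were not tested.

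The median of the 9 genes, 0.0252, was 0.097 after median centring, -0.0201 as labelled, -0.0733 with array weights, -0.0065 on arrays 1 and 2 only and -0.011 to 0.161 with 1 replicate left out. Over all probes, 0 passed the adjusted threshold, with 930 higher and 1244 lower at an unadjusted p under 0.05 (limma). As labelled, 86 passed as higher and 6 as lower, with 1479 and 2082 unadjusted. Array weights gave 3 and 2, arrays 1 and 2 only gave 17 and 2, and leaving out a replicate gave 0 to 4 higher, 4 without replicate 1. After median centring, 786 were higher and 394 lower unadjusted, and the median of all probes was 0.057. Cyp26a1, at background in 1 mutant channel, left the test under the stricter filter. Over the settings run for gene lists, the median of genes responsive to retinoic acid ranged from 0.04 to 0.37, that of retinol transport from -0.02 to 0.22, receptors from 0.00 to 0.22, liver bud and foregut from 0.04 to 0.29, sinus venosus and atrium from 0.04 to 0.37, epicardium from -0.35 to -0.09 and erythroid markers from -0.38 to -0.04.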
